A study of Mus musculus with 23 samples.

Results

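The macrophage subtype genes were a set of 10 mouse genes, Cd163, Mrc1, Clec10a, Cbr2, Cd5l, Arg1, Chil3, Gpnmb, Lgals3 and Trem2, read by 11 of the 22690 probe sets on the array and chosen by their symbols out of 12393 genes. The first 5 are markers of resident-type macrophages and the other 5 of recruited and repair-type macrophages. The choice was made with results of these same arrays known, among them the rises of Gpnmb, Lgals3, Arg1 and Chil3 after injury, so the changes between day 0 and the later days are given as a description with no test. All 10 genes were bright enough to be among the 11164 genes tested.

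RNA of mouse gastrocnemius muscle, a calf muscle, was measured on 23 Affymetrix arrays in a study of staged degeneration and regeneration. The groups were emerin KO (knockout) mice, with 2 arrays on day 0 and 3 arrays each on day 3 and day 4 after an injection; lamin A/C KO mice, with 3 arrays on each day; and control mice, with 2 arrays on each day. Day 0 muscle is labelled as not injected in emerin KO and control mice, and as taken 0 days after injection in lamin A/C KO mice. The agent injected, the strain and the age of the mice are not given in the sources used here. By their titles all 6 control arrays belong to the lamin A line, and no emerin line controls are among these arrays. Line and genotype therefore cannot be told apart in emerin KO minus control or in emerin KO minus lamin A/C KO. The description of control day 4 replicate 2 leaves out its genotype, which its title gives. Nothing in the labels says that the arrays of a group came from separate animals, so each p-value rests on a spread between samples that may be technical.

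When muscle fibers die, monocytes enter the tissue, become macrophages that clear debris, and then shift toward cells that favor the growth of new fibers. Uninjured muscle holds a smaller population of resident macrophages between the fibers, known in mice for scavenger receptors and lectins such as those encoded by Cd163, Mrc1 and Clec10a. Macrophages that have taken up dead cells and their lipids carry another set of genes, of which Gpnmb, Lgals3 and Trem2 are well known in many tissues. In whole muscle, fewer cells of a type and less RNA per cell cannot be told apart.

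The stretches around the start sites of 4 of these genes are shown because they stand for the patterns described below: Cbr2 and Cd5l among the resident-type genes, and Gpnmb and Trem2 among the repair-type genes. Each runs 5′ to 3′ on the gene's strand over 300 bases, from 250 before to 50 after the start, in RefSeq's mouse annotation (build GRCm38.p6). Capitals mark the letters GAGGAA, the core of the site of PU.1 (the factor that directs macrophage identity), TGACTCA, the AP-1 site, and CATGTG, an E-box bound by the MiT factors in mice, each on either strand.
Cbr2 (chr11:120731972-120732271, minus strand): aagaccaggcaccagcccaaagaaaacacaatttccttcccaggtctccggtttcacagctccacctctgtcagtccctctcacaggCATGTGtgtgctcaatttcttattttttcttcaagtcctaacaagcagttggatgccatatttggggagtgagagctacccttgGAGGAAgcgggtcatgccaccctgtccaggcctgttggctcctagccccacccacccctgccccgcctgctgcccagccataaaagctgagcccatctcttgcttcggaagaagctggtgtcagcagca
Cd5l (chr3:87357631-87357930, plus strand): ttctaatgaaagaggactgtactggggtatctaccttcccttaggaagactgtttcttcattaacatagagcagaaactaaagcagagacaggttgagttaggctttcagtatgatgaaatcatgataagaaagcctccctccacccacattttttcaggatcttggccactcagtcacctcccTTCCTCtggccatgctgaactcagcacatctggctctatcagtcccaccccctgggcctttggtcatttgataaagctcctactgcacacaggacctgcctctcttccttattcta
Gpnmb (chr6:49036268-49036567, plus strand): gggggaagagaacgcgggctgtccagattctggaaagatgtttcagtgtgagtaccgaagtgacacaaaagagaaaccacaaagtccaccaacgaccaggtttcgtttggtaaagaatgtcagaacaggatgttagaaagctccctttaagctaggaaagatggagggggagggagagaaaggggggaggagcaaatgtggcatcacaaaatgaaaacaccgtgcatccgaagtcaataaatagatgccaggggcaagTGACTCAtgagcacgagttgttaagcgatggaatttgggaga
Trem2 (chr17:48346151-48346450, plus strand): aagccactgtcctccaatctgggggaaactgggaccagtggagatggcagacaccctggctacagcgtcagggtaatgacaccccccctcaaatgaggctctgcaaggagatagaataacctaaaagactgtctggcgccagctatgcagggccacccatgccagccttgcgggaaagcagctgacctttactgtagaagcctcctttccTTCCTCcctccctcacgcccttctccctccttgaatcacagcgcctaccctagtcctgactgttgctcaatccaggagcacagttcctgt
Sequences were found for 8 of the 10 genes, Arg1 and Clec10a being the other two. GAGGAA or its reverse complement stood in 4 of the 8, Cbr2, Cd5l, Mrc1 and Trem2, and in 28.3% of all 32851 promoters of this length. TGACTCA stood in Gpnmb, 9 bases after the start, and in 5.2% of all promoters. CATGTG stood in Cbr2 and Mrc1 and in 14.2% of all promoters, and CACGTG, another E-box, in 0 of the 8 and in 7.15% of all. No motif searched overlapped another in the 4 sequences shown. A match is a description of the letters and not a measured site.

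The labels held against the deleted genes: Emd, which encodes emerin, read 153 to 465 on the 8 emerin KO arrays against 587 to 871 on the other 15, and Lmna, of lamins A and C, read 53.0 to 109 on the 9 lamin A/C KO arrays against 650.0 to 5334 on the other 14. Signals here are MAS5 signals, a measure of brightness on a linear scale, rescaled to the same trimmed mean of 500 on every array. The tissue carried the markers of muscle: the 12 mature myofiber markers summed to between 261840 and 338659 on day 0 over all groups, and were lower after injury. The 24 pan-macrophage markers summed to 11107 to 13027 in emerin KO, 12970 to 16334 in lamin A/C KO and 9464 to 12522 in control on day 0, and to 68257 to 92520 after injury. One measure of RNA quality moved with genotype. The 3'/5' signal ratio of the Gapdh control probe sets, which grows when RNA is broken, was 3.62 to 6.09 on the 3 emerin KO day 3 arrays and 1.40 to 5.30 on the 3 emerin KO day 4 arrays, against 0.822 to 1.64 over the 15 arrays of lamin A/C KO and control and 0.914 to 1.34 on the 2 emerin KO day 0 arrays. Within those 15 the ratio also differed by group. It was 1.21 to 1.64 in lamin A/C KO at day 3, 0.822 to 0.888 in the same knockout at day 4, and 0.957 to 0.976 in control at day 3.

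Emerin KO and control differed most often on day 3, in 4 of 5 resident-type genes and 1 of 5 repair-type genes, a contrast between both kinds of marker that was not tested. On that day Cd163, Clec10a, Cbr2 and Cd5l, and with them the repair-type gene Trem2, were higher in emerin KO than in control, while Mrc1, Arg1, Chil3, Gpnmb and Lgals3 did not pass. That is 5 of 10 genes, all higher, where 16.3% of all genes tested passed in either direction and 7.38% were higher (limma, adjusted p under 0.05 over all 11164 genes, here and throughout). On day 4 Clec10a and Cbr2 were higher in emerin KO than in control, 2 of 10 where 5.87% of all genes passed. On day 0 Clec10a was higher, 1 of 10 where 3.26% of all genes passed. The median log2 difference of the 10 genes between emerin KO and control was 0.71 on day 3 and 0.47 on day 4, against 0.00 and 0.04 over all genes.

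Markers of other cell types differed between the same arrays. The 12 mature myofiber markers summed to 60059 to 70710 in emerin KO, 71734 to 81170 in lamin A/C KO and 82411 to 122757 in control on day 3, and to 99946 to 107455, 99640 to 128283 and 121572 to 137838 in the same groups on day 4. Of these 12, 4 were lower in emerin KO than in control on day 3 and 1 on day 4, led on day 3 by the myosin light chain gene Mylpf (-1.13 ± 0.19, adjusted p = 3.7e-04). The 9 fibroblast and matrix markers with a probe set summed to 37890 to 57071 in emerin KO and 78310 to 89728 in control on day 0, to 49417 to 57660 and 75811 to 77837 on day 3, and to 63387 to 69265 and 75888 to 89587 on day 4. Of these 9, 5 were lower in emerin KO on day 0, 3 on day 3 and 2 on day 4, with the matrix gene Postn at a log2 difference of -2.87 ± 0.23 on day 3 (adjusted p = 1.3e-07). Every marker of both lists was above a signal of 100 on every array. Of the 10 regenerating myofiber markers, 3 were lower in emerin KO than in control on day 0. On day 3, 3 of these were higher and 4 lower, and on day 4, 4 were higher and 0 lower. The shares of all genes past the threshold in these comparisons are the 3.26%, 16.3% and 5.87% given above, and the part of these shifts in the macrophage gene differences was not tested.

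Lamin A/C KO differed from control in Lgals3 on day 0 and in Cd5l on day 4. Lgals3 on day 0 was higher in lamin A/C KO, 1 of 10 where 0.896% of all genes passed. Those lamin A/C KO arrays are labelled as 0 days after injection and those of control as not injected, so injection and genotype cannot be told apart there. On day 3 the count was 0 of 10 by limma, where 0.0269% of all genes passed and 809 genes had an unadjusted p under 0.05. Those 809 genes included Cd163, Chil3 and Cbr2, which were higher in lamin A/C KO, and Cd5l, which was lower. On day 4 Cd5l was lower in lamin A/C KO than in control, 1 of 10 where 0.0448% of all genes, 5 in number, passed.

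Set against each other, the knockouts differed in 5 genes on each day after injury. Clec10a, Cbr2, Cd5l and Trem2 were higher and Chil3 was lower in emerin KO than in lamin A/C KO on day 3, where 9.95% of all genes passed. Clec10a, Cbr2, Cd5l, Trem2 and Arg1 were higher in emerin KO than in lamin A/C KO on day 4, where 16.4% of all genes passed. On day 0 Lgals3 was lower in emerin KO, 1 of 10 where 6.3% of all genes passed. Emerin KO is labelled as not injected on that day and lamin A/C KO as 0 days after injection, so injection and genotype cannot be told apart there. Comparisons between the knockouts share the emerin KO and lamin A/C KO arrays with the ones above.

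All emerin KO arrays of day 3 had a Gapdh ratio above that of every array of the other genotypes, so on that day the ratio and the emerin KO genotype cannot be told apart. In a narrower range, the day 3 ratios of lamin A/C KO all lay above those of day 3 control and above its own at day 4. Ratio and group therefore cannot be told apart in its day 3 differences from control either. The same holds for the falls of Arg1 and Chil3 by day 4 in that knockout. With the log2 of the ratio as a covariate, the day 3 differences between emerin KO and control were 1.64 in Cd163, 1.63 in Clec10a, 1.65 in Cbr2, 0.67 in Cd5l and 1.73 in Trem2, and none of them passed (limma adjusted p = 0.26, 0.063, 0.32, 0.76 and 0.23). In the same fit 9 genes of all those tested passed on day 3, against 1820 without the covariate. Between the knockouts, too, none of the genes called on day 3 or day 4 passed with the covariate, with limma adjusted p of 0.059 (Clec10a) to 0.69 (Cbr2) on day 3 and 0.070 (Cd5l) to 0.90 (Arg1) on day 4. On day 4 the emerin KO array with a ratio of 1.40, replicate 2, lay within the range of the other genotypes over all days. It lay above their day 4 arrays, which reached 1.23 in control and 0.888 in lamin A/C KO. With that array alone for emerin KO, assumed to vary like the other groups, the day 4 difference from control was 1.86 in Cbr2 and 0.91 in Clec10a (limma adjusted p = 0.089 and 0.19).

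Cd163 encodes the scavenger receptor for haptoglobin-bound hemoglobin (probe set 1419144_at). On day 0 it read 212 and 236 in emerin KO, 252, 257 and 302 in lamin A/C KO, and 202 and 168 in control. On day 3 it read 548, 731 and 873 in emerin KO, 343, 561 and 553 in lamin A/C KO, and 134 and 180.4 in control. By day 4 it was at 257, 222 and 239.5 in emerin KO, 286, 214 and 307 in lamin A/C KO, and 118 and 283 in control. The day 3 arrays of both knockouts lay above both control arrays, and on day 4 the groups overlapped. The day 3 difference from control was 1.97 ± 0.27 (log2, ± SE) in emerin KO (adjusted p = 6.1e-05) and 1.43 ± 0.27 in lamin A/C KO, which did not pass (adjusted p = 0.060). The lamin A/C KO difference did pass with arrays scaled to the same median (1.54, adjusted p = 0.048), with the mean of a gene's probe sets (1.43, adjusted p = 0.0497) and without lamin A/C KO day 3 replicate 1 (1.65, adjusted p = 0.031). Within emerin KO, Cd163 fell by 1.44 ± 0.24 between day 3 and day 4 (adjusted p = 0.0019), which also held in every alternative run. Between day 3 and day 0 the log2 difference was 1.53 in emerin KO, 0.75 in lamin A/C KO and -0.21 in control.

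Mrc1 encodes the mannose receptor, a lectin that takes up glycoproteins and is also carried by some endothelial cells (probe set 1450430_at). On day 0 it read 699 and 538 in emerin KO, 771, 873 and 855 in lamin A/C KO, and 667 and 658 in control. Day 3 signals were 2433, 2027 and 2888 in emerin KO, 2459.9, 2898 and 2498 in lamin A/C KO, and 2571 and 1895 in control. On day 4 they were 1954, 3183 and 1685 in emerin KO, 2668, 2119 and 2159 in lamin A/C KO, and 1565 and 1713 in control. Every injured array lay above every day 0 array, and the genotypes overlapped on day 3. The day 3 difference was 0.13 ± 0.21 between emerin KO and control (95% interval -0.30 to 0.57, adjusted p = 0.75) and 0.24 ± 0.21 between lamin A/C KO and control (-0.20 to 0.68, adjusted p = 0.87). Both intervals lie within 1 log2 unit of 0. On day 4 the difference between emerin KO and control was 0.41 ± 0.21 (adjusted p = 0.27), and it passed with the Gapdh covariate (1.04, adjusted p = 0.046). Lamin A/C KO lay above control on day 4 with no overlap of arrays, by 0.48 ± 0.21, which did not pass.

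Clec10a encodes a lectin for galactose and N-acetylgalactosamine, carried by macrophages and by some dendritic cells (probe set 1419605_at). On day 0 it read 278 and 307 in emerin KO, 151, 226 and 232 in lamin A/C KO, and 126 and 148 in control. On day 3 the signals were 854, 1097 and 1060.0 in emerin KO, 428, 452 and 377 in lamin A/C KO, and 341 and 292 in control. On day 4 they were 578, 595 and 556 in emerin KO, 401, 328 and 409 in lamin A/C KO, and 324 and 281 in control. The order emerin KO, lamin A/C KO, control held on each day with no overlap of arrays. Emerin KO exceeded control by 0.94 ± 0.20 on day 0, by 1.57 ± 0.18 on day 3 and by 0.87 ± 0.18 on day 4 (adjusted p = 0.0081, 1.1e-05 and 0.0073). Lamin A/C KO and control, its neighbors in that order, did not differ past the threshold on any day (0.46 ± 0.18, 0.37 ± 0.18 and 0.30 ± 0.18, adjusted p = 0.34, 0.69 and 1.0).

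The day 3 difference of Clec10a between emerin KO and control passed without each array in turn. The day 0 one did not pass without emerin KO day 0 replicate 2 (0.88, adjusted p = 0.085) or control day 0 replicate 1 (0.84, adjusted p = 0.10). The day 4 one did not pass without control day 4 replicate 1 (0.96, adjusted p = 0.055) or replicate 2 (0.77, adjusted p = 0.081). Against lamin A/C KO, Clec10a was higher in emerin KO by 1.19 ± 0.16 on day 3 and by 0.57 ± 0.16 on day 4 (adjusted p = 9.7e-05 and 0.019), and the second was lost without emerin KO day 4 replicate 1 (0.57, adjusted p = 0.062), replicate 3 (0.60, adjusted p = 0.057) or lamin A/C KO day 4 replicate 2 (0.48, adjusted p = 0.090). Within emerin KO it fell by 0.76 ± 0.16 between day 3 and day 4 (adjusted p = 0.017), a call lost without emerin KO day 3 replicate 2 (-0.69, adjusted p = 0.10), day 3 replicate 3 (-0.72, adjusted p = 0.066) or day 4 replicate 1 (-0.76, adjusted p = 0.072).

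Among markers of dendritic cells and antigen presentation a few were also higher in emerin KO than in control. The 11 listed markers summed to 5849 to 7678 in emerin KO, 4056 to 5345 in lamin A/C KO and 2474 to 2959 in control on day 0, and to 11728 to 17773, 9435 to 11429 and 6271 to 7383 in the same groups on day 3. Of the 10 tested, 3 were higher in emerin KO than in control on day 0 and 3 on day 3, where 3.26% and 16.3% of all genes passed, each time Cd74, H2-Aa and H2-Eb1, which B cells and macrophages also express, and the other 7 did not pass. On day 4, 2 of the 10 were higher and 0 lower in emerin KO, where 5.87% of all genes passed. In lamin A/C KO, too, 2 of the 10 were higher and 0 lower than in control on day 0, where 0.896% of all genes passed. Injection and genotype cannot be told apart in that day 0 difference. Ccr7, a marker of migrating dendritic cells, was below a signal of 100 on every array. The part of these cells in the Clec10a result was not tested.

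Cbr2 encodes a carbonyl reductase and marks resident macrophages in several mouse tissues (probe set 1418509_at). The day 0 signals were 1213 and 692 in emerin KO, 449, 727 and 553 in lamin A/C KO, and 570.4 and 298 in control. On day 3 it read 3698, 4154 and 2937 in emerin KO, 1006, 1794 and 1751 in lamin A/C KO, and 698 and 685 in control. By day 4 it read 1857, 1923 and 2701 in emerin KO, 807, 635 and 805 in lamin A/C KO, and 371 and 686 in control. After injury every emerin KO array lay above every array of the other groups on the same day. Emerin KO exceeded control by 2.31 ± 0.30 on day 3 and 2.01 ± 0.30 on day 4 (adjusted p = 4.2e-05 and 7.6e-04), the widest differences of the 10 genes on those days, and lamin A/C KO by 1.26 ± 0.27 (adjusted p = 0.0051) and 1.48 ± 0.27 (adjusted p = 0.0011). The excess over control was 1.09 ± 0.33 on day 0 and did not pass (adjusted p = 0.078). The day 3 excess of lamin A/C KO over control was 1.05 ± 0.30 with no overlap of arrays, which did not pass (adjusted p = 0.43). Control signals overlapped between day 0 and day 4.

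Cd5l encodes a secreted scavenger-receptor protein that macrophages release and that protects them from death (probe set 1449193_at). The day 0 signals were 105 and 145 in emerin KO, 125, 124 and 85.1 in lamin A/C KO, and 101 and 145 in control. On day 3 it read 636, 824 and 823 in emerin KO, 161, 215 and 231 in lamin A/C KO, and 409 and 240.1 in control. The day 4 signals were 549, 487 and 671 in emerin KO, 105, 124 and 119 in lamin A/C KO, and 449 and 319.9 in control. The genotypes overlapped on day 0 and not after injury, when emerin KO was highest and lamin A/C KO lowest. Some gaps were narrow, with lamin A/C KO up to 231 and control from 240.1 on day 3, and control up to 449 and emerin KO from 487 on day 4. Lamin A/C KO was the group in which Cd5l on day 4 was back in its day 0 range. Those signals lie close to the minimum of 100, with the day 0 array at 85.1 under it. The sizes of the Cd5l differences from lamin A/C KO on day 4 therefore rest on values near that minimum.

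On day 4 Cd5l was lower in lamin A/C KO than in control by a log2 difference of -1.48 ± 0.24 (adjusted p = 0.012). The difference lost the call without lamin A/C KO day 4 replicate 1 (-1.42, adjusted p = 0.057) or control day 4 replicate 1 (-1.25, adjusted p = 0.26). On day 3 it was -0.58 ± 0.24 and did not pass (adjusted p = 0.61). Emerin KO exceeded control by 1.19 ± 0.24 on day 3 (adjusted p = 0.0021), lost without control day 3 replicate 2 (0.84, adjusted p = 0.083), and by 0.54 ± 0.24 on day 4, which did not pass (adjusted p = 0.20). Between the knockouts the difference was 1.76 ± 0.22 on day 3 and 2.01 ± 0.22 on day 4 (adjusted p = 3.1e-05 and 5.6e-06), emerin KO being higher. On day 4 it also passed with the 1 emerin KO array whose Gapdh ratio was low (1.81, adjusted p = 0.020), and not with the Gapdh covariate (1.63, adjusted p = 0.070). Between day 4 and day 0 the log2 difference of Cd5l was 1.94 in emerin KO, 0.05 in lamin A/C KO and 1.43 in control.

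**Figure D1:**
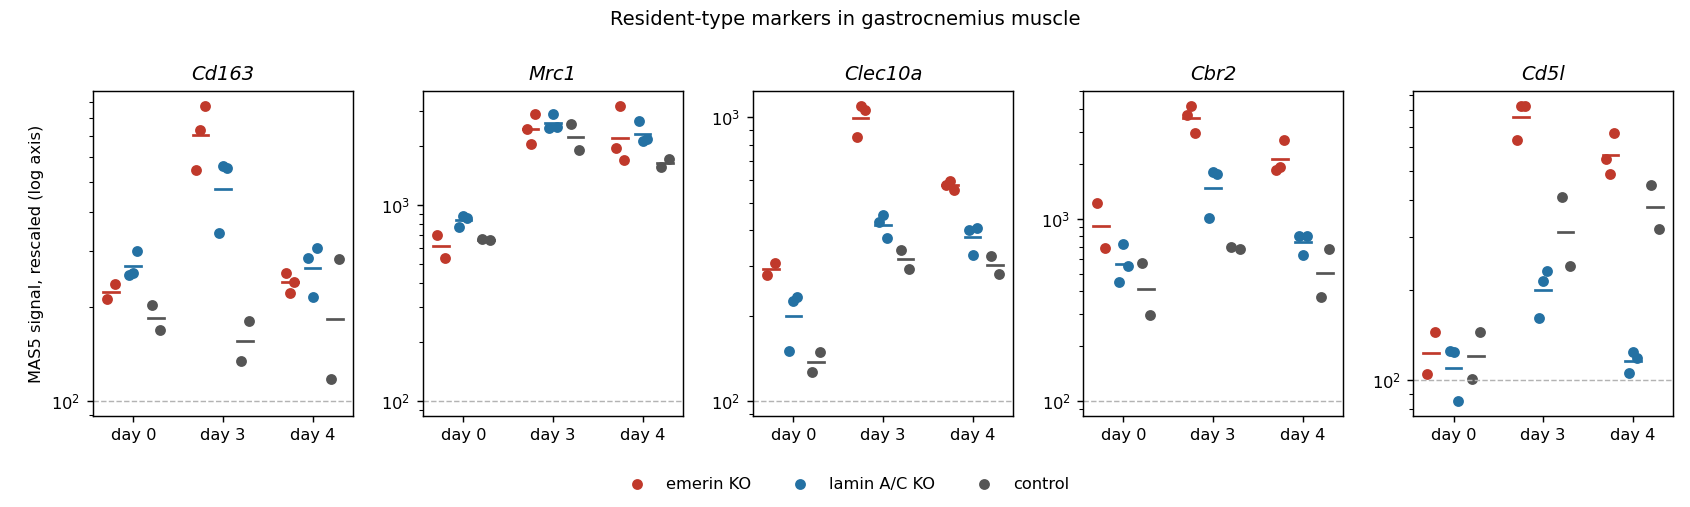
MAS5 signal (rescaled, log axis) of the resident-type markers Cd163, Mrc1, Clec10a, Cbr2 and Cd5l on days 0, 3 and 4; points are arrays, short bars are means taken on the log scale, and the dashed line is a signal of 100. Cbr2 after injury sits at 1857 to 4154 in emerin KO, above all other arrays of the same days. The Cd5l arrays of the 3 genotypes do not overlap on day 4, where the difference between emerin KO and control did not pass.

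Arg1 encodes arginase, which turns arginine into ornithine and is a classic gene of alternatively activated macrophages (probe set 1419549_at). On day 0 it was under a signal of 100 on every array, at 35.5 and 9.99 in emerin KO, 7.24, 9.84 and 22.5 in lamin A/C KO, and 86.3 and 84.6 in control. After 3 days it read 1788, 2705 and 2038 in emerin KO, 1629, 3777 and 4719.6 in lamin A/C KO, and 2196 and 2579 in control. By day 4 it read 2711, 1769.6 and 3973 in emerin KO, 1105, 611 and 874 in lamin A/C KO, and 718 and 1728 in control. The genotypes overlapped on day 3, and on day 4 the emerin KO arrays lay above all others. On day 4 the difference was 1.63 ± 0.35 between emerin KO and lamin A/C KO (adjusted p = 0.0037) and 1.24 ± 0.39 between emerin KO and control, which did not pass (adjusted p = 0.065). The call against lamin A/C KO ended with the Gapdh covariate (0.53, adjusted p = 0.90) and with the 1 low-ratio emerin KO array (1.05, adjusted p = 0.44). The difference from control passed without emerin KO day 4 replicate 2 (1.53, adjusted p = 0.021) or control day 4 replicate 2 (1.85, adjusted p = 0.037).

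Within lamin A/C KO, Arg1 fell by 1.83 ± 0.35 between day 3 and day 4 (adjusted p = 0.0077), a call lost without lamin A/C KO day 3 replicate 3 (-1.53, adjusted p = 0.077) or day 4 replicate 2 (-1.62, adjusted p = 0.062) and with the Gapdh covariate (-1.39, adjusted p = 0.088). In emerin KO the same difference was 0.31 ± 0.35 (adjusted p = 0.81) and in control -1.07 ± 0.43 (adjusted p = 0.96). Because the day 0 arrays lay under a signal of 100, the difference between day 3 and day 0 is given against that signal, from means on the log scale, as at least 21.4-fold higher in emerin KO, at least 30.7-fold in lamin A/C KO and at least 23.8-fold in control.

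Chil3 encodes a chitinase-like protein secreted by mouse macrophages and also found in neutrophils (probe set 1419764_at, with a further probe set named for Chil4 and Chil3 together and not used). On day 0 the signals were 7.74 and 20.3 in emerin KO, 16.8, 9.24 and 8.50 in lamin A/C KO, and 4.83 and 16.7 in control, all under 100. The day 3 signals were 418, 297 and 370.2 in emerin KO, 626, 778 and 1699 in lamin A/C KO, and 478 and 319.7 in control. After 4 days it read 145, 315 and 179 in emerin KO, 338, 231 and 375 in lamin A/C KO, and 209 and 171 in control. All 3 lamin A/C KO arrays of day 3 lay above the other groups, 1 of them far above its fellows. Chil3 was lower in emerin KO than in lamin A/C KO on day 3 by a log2 difference of -1.32 ± 0.31 (adjusted p = 0.0088), and this was lost without lamin A/C KO day 3 replicate 3 (-0.90, adjusted p = 0.061) and with a pseudocount of 1 (-1.39, adjusted p = 0.059). The excess of lamin A/C KO over control on that day was 1.20 ± 0.34, which did not pass (adjusted p = 0.43).

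Between day 3 and day 4 Chil3 fell by 1.51 ± 0.31 in lamin A/C KO (adjusted p = 0.011), lost without day 3 replicate 3 (-1.10, adjusted p = 0.10) or day 4 replicate 2 (-1.33, adjusted p = 0.082) and with a pseudocount of 1 (-1.60, adjusted p = 0.074). The same difference was also negative in emerin KO (-0.73 ± 0.31, limma adjusted p = 0.35) and in control (-0.94 ± 0.38, limma adjusted p = 0.96), where it did not pass. Neutrophil markers were also present on day 3, the 12 with a probe set summing to 3709 to 4610 in emerin KO, 4191 to 6219 in lamin A/C KO and 5585 to 6319 in control. Between emerin KO and control on that day, 0 of the 10 tested passed by limma, where 16.3% of all genes passed, and 0 had an unadjusted p under 0.05. Between day 3 and day 4 in lamin A/C KO, where Chil3 fell, 0 of the 10 passed, where 2.04% of all genes passed. Of the 10, 4 had an unadjusted limma p under 0.05, against 1665 of all genes, and their median log2 difference was -0.31 against -0.02 over all genes. The 12 markers summed to 3178 to 4297 in lamin A/C KO on day 4. Of these 12 the neutrophil receptor Cxcr2 and the granule gene Camp were too dim to be tested. The part of neutrophils in the Chil3 signal was not tested. Against a signal of 100, day 3 was at least 3.58-fold above day 0 in emerin KO, at least 9.39-fold in lamin A/C KO and at least 3.91-fold in control.

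Gpnmb encodes a transmembrane glycoprotein of macrophages that have engulfed cells and lipid (probe set 1448303_at). Day 0 signals were 269 and 120.4 in emerin KO, 211, 254 and 354 in lamin A/C KO, and 138 and 234 in control. After 3 days it read 6372, 6771 and 5272 in emerin KO, 7141, 9166 and 10723 in lamin A/C KO, and 6268 and 5836 in control. The day 4 signals were 5575, 6219 and 4393 in emerin KO, 6403, 4057 and 9784 in lamin A/C KO, and 7321 and 5999.6 in control. All groups were far above their day 0 level after injury, and emerin KO and control overlapped on every day. On day 3 every lamin A/C KO array lay above every array of emerin KO and control. The difference between emerin KO and control was 0.01 ± 0.31 on day 3 (95% interval -0.62 to 0.65, adjusted p = 0.99) and -0.31 ± 0.31 on day 4 (-0.95 to 0.33, adjusted p = 0.61). The difference between lamin A/C KO and control was 0.55 ± 0.31 on day 3 and -0.06 ± 0.31 on day 4 (adjusted p = 0.74 and 1.0). The log2 difference between day 3 and day 0 was 4.84 in emerin KO, 4.90 in lamin A/C KO and 4.84 in control.

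Lgals3 encodes galectin-3, a lectin of macrophages that regenerating muscle and fibroblasts can also express (probe set 1426808_at). The day 0 signals were 350.2 and 213 in emerin KO, 1010.2, 962 and 1209.9 in lamin A/C KO, and 225 and 509 in control. The day 3 signals were 10858, 11844 and 8733 in emerin KO, 9789.8, 10636 and 11649 in lamin A/C KO, and 8813 and 8767 in control. By day 4 it read 9939.6, 10171 and 10785 in emerin KO, 8432, 8309 and 11706 in lamin A/C KO, and 9088 and 10054 in control. On day 0 all 3 lamin A/C KO arrays lay above the other 4 arrays, and after injury emerin KO overlapped both other groups. Lamin A/C KO exceeded control by 1.55 ± 0.23 on day 0 (adjusted p = 7.3e-04), lost without control day 0 replicate 1 (1.01, adjusted p = 0.055) and in a fit of those 2 groups alone (1.55, adjusted p = 0.070). Emerin KO lay below lamin A/C KO by a log2 difference of -1.83 ± 0.23 (adjusted p = 2.5e-05), which passed in every alternative run. Day 0 is labelled as 0 days after injection in lamin A/C KO and as not injected in emerin KO and control. Injection and genotype therefore cannot be told apart in either of these day 0 differences. After injury the differences between the genotypes lay between -0.04 and 0.28 and did not pass.

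Other genes were high together with Lgals3 on day 0 in lamin A/C KO muscle, labelled as 0 days after injection where control is labelled as not injected. S100a4, a calcium-binding protein of fibroblasts and myeloid cells, was 2.20 ± 0.23 above control (means of 2487 and 531, adjusted p = 9.3e-06). Of the 24 pan-macrophage markers, C1qa and Lyz2 were higher, and of 10 regenerating myofiber markers 4 were higher (Myl4, Myh8, Tnnt2 and Chrna1), where 0.896% of all genes passed. The regenerating myofiber markers summed to 2698 to 3173 in emerin KO, 7254 to 8117 in lamin A/C KO and 3899 to 4349 in control on day 0, with Chrng, the fetal acetylcholine receptor subunit, as low as 25.9 on 1 array of the series. The part of regenerating fibers in the Lgals3 level was not tested.

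Trem2 encodes a lipid-sensing receptor of macrophages (probe set 1421792_s_at, whose suffix means that it may read related transcripts). On day 0 the signals were 23.1 and 28.4 in emerin KO, 21.9, 22.5 and 23.2 in lamin A/C KO, and 11.8 and 13.1 in control, all under 100. After 3 days it read 873, 749.5 and 724 in emerin KO, 335, 462 and 438 in lamin A/C KO, and 367 and 203 in control. After 4 days it read 831, 821 and 589 in emerin KO, 417, 239 and 523 in lamin A/C KO, and 539 and 377 in control. Emerin KO lay above both other groups after injury, with no overlap on either day, and lamin A/C KO overlapped control. The difference between emerin KO and control was 1.41 ± 0.27 on day 3 (adjusted p = 0.0013), lost without control day 3 replicate 2 (1.02, adjusted p = 0.059), and 0.67 ± 0.27 on day 4, which did not pass (adjusted p = 0.15). Against a signal of 100, day 3 was at least 7.80-fold above day 0 in emerin KO, at least 4.08-fold in lamin A/C KO and at least 2.73-fold in control.

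Against lamin A/C KO, Trem2 was higher in emerin KO by 0.88 ± 0.24 on day 3 and 0.92 ± 0.24 on day 4 (adjusted p = 0.023 and 0.013). The day 3 call was lost without emerin KO day 3 replicate 1 (0.81, adjusted p = 0.086), replicate 2 (0.91, adjusted p = 0.058) or lamin A/C KO day 3 replicate 1 (0.75, adjusted p = 0.12), and with median scaling (0.82, adjusted p = 0.051). The day 4 call was lost without emerin KO day 4 replicate 1 (0.84, adjusted p = 0.062) or lamin A/C KO day 4 replicate 2 (0.63, adjusted p = 0.090). A second, dimmer Trem2 probe set (1421226_at) did not share the pattern: it averaged 109.9 over all arrays, ranged between 15.7 and 234, and differed between emerin KO and control on day 3 by -0.17 ± 0.71 (adjusted p = 0.92 among 17771 probe sets fitted one by one). With the mean of both probe sets, the Trem2 differences of 1.04 from control on day 3, and of 0.89 and 0.66 from lamin A/C KO on days 3 and 4, did not pass (adjusted p = 0.067, 0.11 and 0.20).

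**Figure D2:**
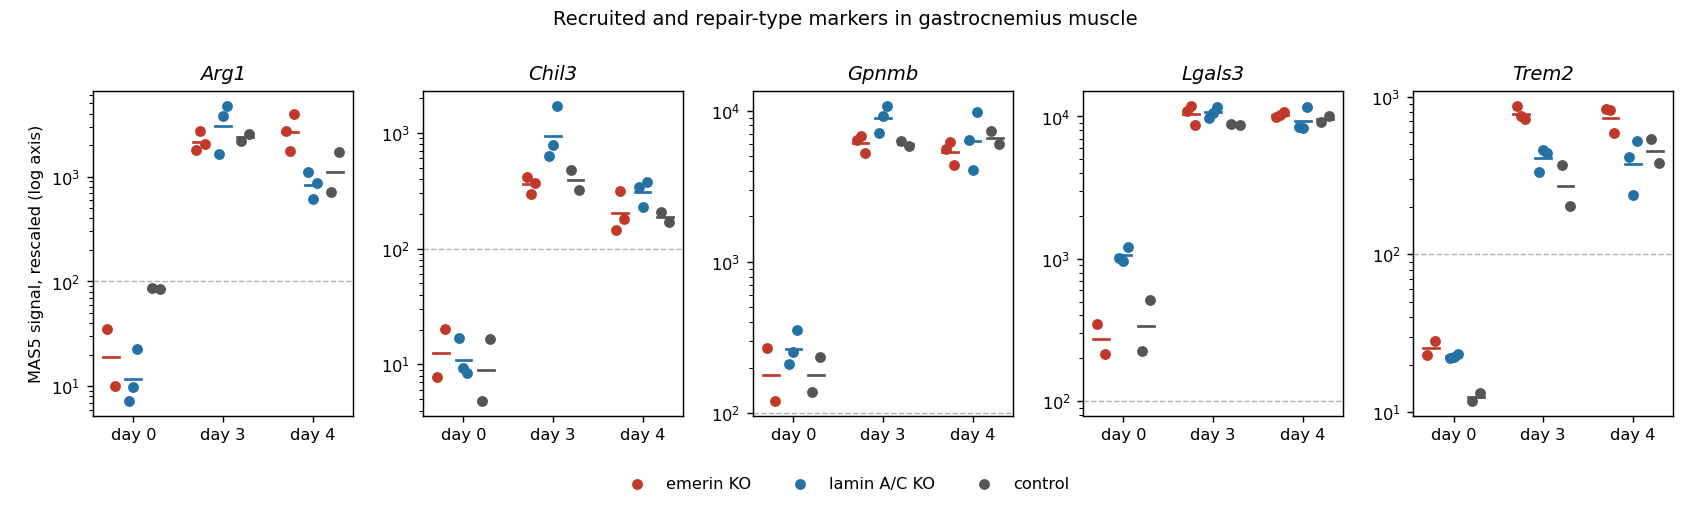
MAS5 signal (rescaled, log axis) of the recruited and repair-type markers Arg1, Chil3, Gpnmb, Lgals3 and Trem2 on days 0, 3 and 4; points are arrays, short bars are means taken on the log scale, and the dashed line is a signal of 100. Arg1, Chil3 and Trem2 lie under that line on every day 0 array, and Lgals3 on day 0 is at 962 to 1209.9 in lamin A/C KO, above the other groups.

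Among the 10 genes, the differences between emerin KO and control on day 3 covered a range of -0.15 in Arg1 to 2.31 in Cbr2, and those between lamin A/C KO and control a range of -0.58 in Cd5l to 1.43 in Cd163. Cd163, Cbr2 and Clec10a had positive differences from control in both knockouts on every day, whereas Cd5l on days 3 and 4 was positive in emerin KO and negative in lamin A/C KO. Gpnmb, Lgals3 and Mrc1 were within 0.55 log2 of control in both knockouts on days 3 and 4.

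**Figure D3:**
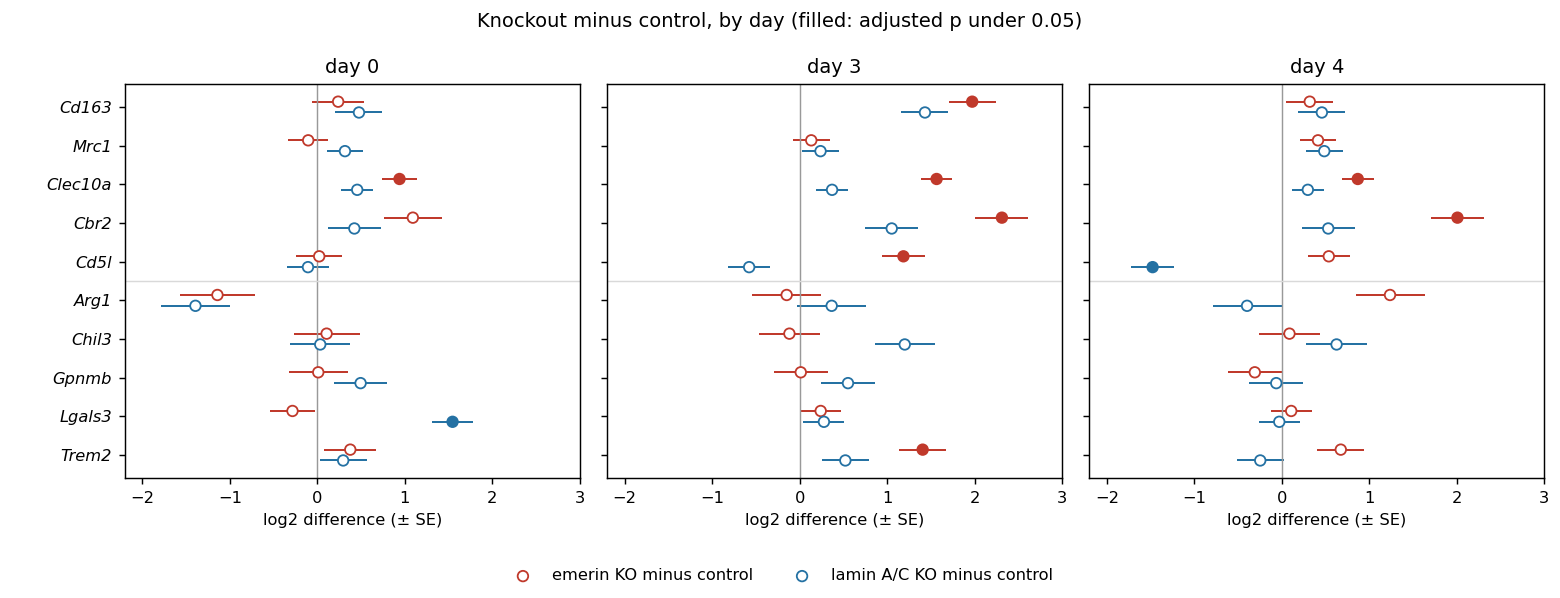
Log2 difference from control (± SE) of each gene in emerin KO (red) and lamin A/C KO (blue) on days 0, 3 and 4; filled points have an adjusted p under 0.05 over all genes tested. On day 3 the filled points are 5 emerin KO genes, led by Cbr2 at 2.31, and on day 4 Cd5l at -1.48 is the filled point of lamin A/C KO.

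The changes after injury are given as a description, since rises of members were known when the genes were chosen. Over the 5 resident-type genes the log2 difference between day 3 and day 0 lay between 1.53 in Cd163 and 2.34 in Cd5l in emerin KO, between 0.71 in Cd5l and 1.61 in Mrc1 in lamin A/C KO, and between -0.21 in Cd163 and 1.69 in Mrc1 in control. On day 4 the same differences lay between 0.08 in Cd163 and 1.94 in Cd5l in emerin KO, between -0.01 in Cd163 and 1.43 in Mrc1 in lamin A/C KO, and between 0.00 in Cd163 and 1.43 in Cd5l in control. Of the repair-type genes above a signal of 100 on day 0, Lgals3 had a log2 difference of 5.09, 3.30 and 4.57 between day 3 and day 0 in emerin KO, lamin A/C KO and control, and Gpnmb had one of 4.65, 4.41 and 4.97 between day 4 and day 0 in the same order of groups. Between day 3 and day 4, Cd163 and Clec10a fell in emerin KO, 2 of 10 where 1.17% of all genes passed, and Arg1 and Chil3 fell in lamin A/C KO, 2 of 10 where 2.04% of all genes passed. In control the count was 0 of 10 by limma, where 0.0448% of all genes passed and 531 had an unadjusted p under 0.05. Those 531 genes included Arg1 and Chil3, which were lower on day 4, and Trem2, which was higher. The pair Cd163 and Clec10a and the pair Arg1 and Chil3 were not tested for a genotype difference in their day 3 to day 4 change.

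Whether the response to injury itself differed from control was tested as an interaction. In emerin KO, Cd163 was the 1 gene of 10 whose day 3 change exceeded that of control, by 1.73 ± 0.40 (adjusted p = 0.023), where 2.64% of all genes passed. This call was lost without any 1 of 6 of the 9 arrays left out in turn, with adjusted p between 0.052 and 0.094: emerin KO day 0 replicate 2 (1.80), emerin KO day 3 replicate 2 (1.71), both control day 0 arrays (1.62 and 1.85) and both control day 3 arrays (1.56 and 1.91). Cd5l (1.16 ± 0.36, adjusted p = 0.083) and Cbr2 (1.22 ± 0.45, adjusted p = 0.15) did not pass. On day 4 the count in emerin KO was 0 of 10 by limma, where 0.573% of all genes passed and 1358 had an unadjusted p under 0.05. Those 1358 genes included Arg1, with a larger change in emerin KO, which rests on day 0 signals under 100.

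In lamin A/C KO the day 3 change differed from that of control in 0 of 10 genes by limma, where 0.17% of all genes passed and 716 had an unadjusted p under 0.05. Those 716 genes included Cd163, Arg1 and Chil3, with a change above that of control, and Lgals3, with a smaller one. The changes of Arg1 and Chil3 rest on day 0 signals under 100. The day 4 change of Lgals3 was smaller than in control, by a log2 difference of -1.58 ± 0.33 (adjusted p = 0.049), 1 of 10 where 0.206% of all genes passed. Lgals3 in lamin A/C KO began at 962 to 1209.9 on day 0, against 225 and 509 in control, and reached 8309 to 11706 on day 4, against 9088 and 10054 in control. The day 0 arrays are labelled as 0 days after injection in lamin A/C KO and as not injected in control. Injection at day 0 and genotype therefore cannot be told apart in the interactions of lamin A/C KO. The call was lost in 8 of 10 fits that left out 1 array, among them control day 0 replicate 1 (-1.04, adjusted p = 0.30), with adjusted p between 0.077 and 0.30 over the 8. Over all genes the median interaction on the same scale was -0.12 and -0.06 in emerin KO (days 3 and 4) and -0.08 and -0.07 in lamin A/C KO (same days).

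Wider lists of genes used as macrophage markers were read beside the 10 genes. In control muscle on day 0 the resident-type list summed to 24028 to 25776 and the repair and lipid-handling list to 39674 to 43509. The pan-macrophage list summed to 9464 to 12522 on the same arrays. The part of other cell types in the differences of these lists was not tested. Of 20 other resident-type macrophage genes tested, 7 were higher and 1 was lower in emerin KO than in control on day 3, where 16.3% of all genes passed, with a median log2 difference of 0.45 against 0.00 over all genes. The called members with the widest differences were Stab1, a scavenger receptor (1.64 ± 0.20, means of 4158 and 1309, adjusted p = 2.0e-05), the chemokine gene Ccl6 (1.25 ± 0.30, adjusted p = 0.0066), the coagulation factor gene F13a1 (1.17 ± 0.18, adjusted p = 1.9e-04) and the chemokine gene Pf4 (1.01 ± 0.16, adjusted p = 2.3e-04). On day 4, 5 of the 20 were higher and 0 lower, where 5.87% of all genes passed, with a median of 0.32 against 0.04 over all genes, including Ccl6 (1.70 ± 0.30, adjusted p = 0.0025) and Stab1 (1.03 ± 0.20, adjusted p = 0.0041).

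Of 18 genes of recruited monocytes and inflammatory macrophages, 1 was higher and 4 were lower in emerin KO than in control on day 3, with a median of 0.08, and 2 were higher and 0 lower on day 4, with a median of 0.51, above that of the resident-type list on that day. For this list and the ones that follow, the share of all genes past the threshold was again 16.3% on day 3 and 5.87% on day 4. Thbs1, which encodes thrombospondin (-2.54 ± 0.40, adjusted p = 2.4e-04), and the monocyte chemokine gene Ccl2 (-1.22 ± 0.41, adjusted p = 0.048) were lower, and Ccr2, the receptor for that chemokine, was higher (1.18 ± 0.36, adjusted p = 0.026). Of 24 other repair and lipid-handling genes 3 were higher and 4 lower on day 3, with a median of 0.23, and 2 were higher and 1 lower on day 4. The day 3 calls included Hmox1, the heme-degrading oxygenase (1.16 ± 0.26, adjusted p = 0.0045), and Cd9, a tetraspanin of many cell types (-1.42 ± 0.37, adjusted p = 0.010). Of 17 alternative activation genes 4 were higher and 1 lower on day 3, with a median of 0.08, and 1 was higher and 1 lower on day 4. Those of day 3 included the transcription factor gene Klf4 (1.12 ± 0.24, adjusted p = 0.0027) and Retnla (0.99 ± 0.33, adjusted p = 0.041).

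Genes that most macrophages carry moved in both directions on day 3. Of the 24 pan-macrophage markers, 6 were higher and 3 lower in emerin KO than in control, with a median of 0.13, and on day 4, 5 were higher and 0 lower. On day 3 Laptm5 (1.83 ± 0.24, adjusted p = 4.6e-05) and Aif1 (1.29 ± 0.21, adjusted p = 2.3e-04) were higher, and Cd53 (-1.54 ± 0.29, adjusted p = 0.0011) and Cybb (means of 208 in emerin KO and 437 in control, adjusted p = 0.036) were lower. Their summed signal on day 3 was 80821 to 91090 in emerin KO, 80892 to 82636 in lamin A/C KO and 71377 to 74910 in control, and on day 4 it was 79191 to 91120, 75736 to 92520 and 68257 to 71278 in the same groups. In lamin A/C KO, 0 of the 103 tested genes of these 5 lists passed against control on day 3 or day 4 by limma. Of all 11164 genes, 0.0269% and 0.0448% passed on those days. At an unadjusted limma p under 0.05 were 23 and 15 of the 103, against 809 and 540 of all 11164 genes. The Gapdh ratio stood high on the same emerin KO arrays, and its part in these counts beyond the covariate fit was not tested.

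**Figure D4:**
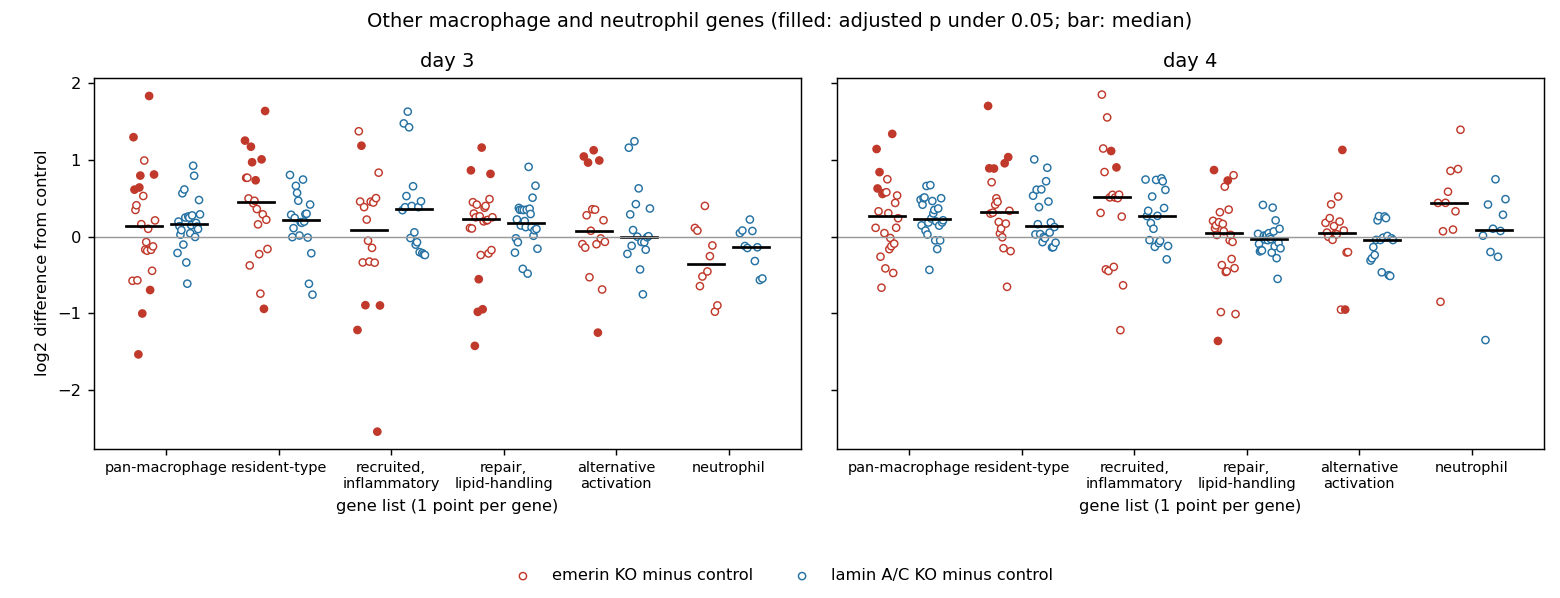
Log2 difference from control of the other macrophage genes and of neutrophil genes by list on day 3 and day 4, in emerin KO (red) and lamin A/C KO (blue); each point is a gene, filled points have an adjusted p under 0.05 and bars are medians. The resident-type list in emerin KO has a median of 0.45 on day 3 and 0.32 on day 4, that of recruited monocytes one of 0.08 and 0.51, and no point of lamin A/C KO is filled. Of all genes, 0.0269% and 0.0448% passed between lamin A/C KO and control on those days.

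The genes whose 9 group means ran most like those of each member were found by the root mean square difference of the centred log2 means, over 10951 named genes. The values share arrays and describe likeness only. Cd5l was nearest to Fcrls, a macrophage scavenger receptor-like gene of mice (0.27, where the spread of Cd5l about its own mean was 0.89), then to Zfhx3 and Ccnd1. Gpnmb ran with Mpeg1, which encodes a pore-forming protein of macrophages (0.27 against a spread of 2.26), Fcer1g and Runx1. Lgals3 had Tnnt2, Mpeg1 and Cyba nearest (0.31 to 0.32), and Trem2 had Ly9, Limd2 and Sirpa (0.22 to 0.29).

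Mrc1 was nearest to Myd88, Vsir and Vash2 (0.12 to 0.13 against a spread of 0.79), and Clec10a to Akr1c13, Wdfy2 and Trim30a (0.14 to 0.20). Cbr2 had Ptpn23, Slfn1 and Rap2b (0.30 to 0.35 against 0.95). For Cd163 the nearest was Ccl24, a chemokine gene of alternatively activated macrophages (0.33 against 0.60), with Fxyd7 and Nkx2-6 after it. Chil3 had Itgb2, Plek and Clec4d (0.41 to 0.45 against 1.57), and Arg1 was nearest to Chrng, Gpnmb and Fcer1g (0.64 to 0.71 against 2.38).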

How the data were processed

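Per the submitters' processing notes, the deposited values are MAS5 signals (intensity, linear scale) with 1 value per probe set and array; no version is stated there. The authors had scaled each array to 1 trimmed mean (150.04 to 150.06 without the lowest and highest 2%). Here each array was brought to a trimmed mean of 500 and the log2 of (signal + 32) was used. Of the 22690 probe sets, 64 were Affymetrix controls, 691 had several symbols, 1555 had none and 20380 had 1. Each of 12393 genes was read from its brightest probe set. Tests covered the 11164 genes that reached a signal of 100 on 2 or more arrays.

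All 9 groups entered 1 linear model (limma 3.58.1 with an intensity trend, in R 4.3.3; files were read with the data.table package, version 1.17.8), with 14 residual degrees of freedom and Benjamini-Hochberg adjustment over all genes within each of 22 comparisons; the threshold was 0.05. The number of arrays limits the precision. The fit was tested on simulated data. Python 3.11.15 with matplotlib 3.10.9 drew the figures.

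The 10 members and the 12 gene lists (173 of 187 symbols with a probe set) were chosen with earlier results of these data known. Named genes were all members, per member the 3 genes with the nearest group means, up to 4 members of a list with the widest called difference, Emd and Lmna; a few further uncalled or dim markers (Chrng, Ccr7, Cxcr2 and Camp) were named after their values were seen. Promoter sequences came from RefSeq (GRCm38.p6). Alternatives were other scalings, pseudocounts of 1 and 100, no filter, all probe sets, no intensity trend, a replicate block, only the compared groups, the Gapdh ratio, and leaving out arrays.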

Additional observations from a re-analysis of the deposited data

Results flagged for a closer look

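The change after injury differed from that of control, by a test of the difference itself, in 2 of the genes. On day 3 the change of Cd163 was larger in emerin KO than in control by 1.73 ± 0.40 (log2, limma adjusted p = 0.023). It was lost in 6 of 9 fits that left out 1 array, with the compared groups alone (limma adjusted p = 0.055) and with the Gapdh covariate (1.45, limma adjusted p = 0.37). On day 4 the change of Lgals3 was smaller in lamin A/C KO than in control, with a difference of -1.58 ± 0.33 (limma adjusted p = 0.049). It was kept in 3 of 12 other settings and lost in 8 of 10 fits that left out 1 array, with limma adjusted p of up to 0.30. Day 0 is labelled as 0 days after injection in lamin A/C KO and as not injected in control, so injection and genotype cannot be told apart in it. The arrays of a group numbered 2 or 3, too few to test any 1 of them as standing apart.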

How the results depend on the processing

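No called difference of a member turned its direction under any alternative run. Among single-gene values, apart from the fits that left out 1 array, 1063 of 1100 genotype differences, 355 of 360 changes between day 3 and day 4 and 477 of 490 interactions kept their side of the threshold, and 663 of 730 changes from day 0 moved by less than 1 SD between replicates. The Gapdh covariate brought the count of members past the threshold to 0 for emerin KO minus control on day 3 (5 without it), 0 for emerin KO minus lamin A/C KO on days 3 and 4 (5 each), 1 for emerin KO minus control on day 4 (2, Mrc1 in place of Clec10a and Cbr2), 1 for the day 4 minus day 3 change in each knockout (2 each) and 0 for both called interactions; the cause was not tested. With the 1 low-ratio emerin KO array of day 4 the counts were 0 against control and 1 against lamin A/C KO, with fewer arrays, and for day 3 no emerin KO array was left and no value was made. In fits of the compared groups alone, and so fewer arrays, the counts were 0 for both knockouts against control on day 0 (1 each), 0 for lamin A/C KO against control on day 4 (1), 1 for emerin KO minus control on day 4 (2), 1 for the day 4 minus day 3 change in emerin KO (2) and 0 for both called interactions. A pseudocount of 1 gave 2 members for both knockouts against control on day 0, Arg1 (under 100 on all those arrays) being added, 1 for the day 4 interaction of emerin KO (0), and 1 for the day 4 minus day 3 change in lamin A/C KO (2). Median scaling and the mean of all probe sets each gave 1 for lamin A/C KO against control on day 3 (0), and quantile normalization gave 2 for the day 3 interaction of emerin KO (1). The 1 interaction of lamin A/C KO on day 4, at the edge of the threshold, became 0 also under median scaling, pseudocounts of 1 and 100, no filter, every probe set, no intensity trend and the replicate block.

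Leaving out each array in turn gave counts of 0 to 1, 3 to 5 and 1 to 3 for emerin KO minus control on days 0, 3 and 4, 0 to 1 on each day for lamin A/C KO against control, 1, 4 to 5 and 3 to 5 for emerin KO minus lamin A/C KO, 1 to 2 in emerin KO, 0 to 3 in lamin A/C KO and 0 in control for day 4 minus day 3, and 0 to 1 for each interaction. The lowest count of 3 on day 3 came without control day 3 replicate 2, and the 0 of lamin A/C KO on day 4 without lamin A/C KO day 4 replicate 1 or control day 4 replicate 1. Whether replicate numbers pair the arrays is not said by the labels and was not settled here. Deviations from the group means correlated with a median of 0.024 over 82 same-numbered pairs and -0.019 over 152 others. A correlation over 0.1 was seen in 26 of the 82 and 28 of the 152. Deviations within a group of 2 arrays mirror each other, so these correlations cannot decide it. The replicate block changed 1 member count, that of the day 4 interaction of lamin A/C KO.

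Counts over all genes moved more. Emerin KO minus control on day 3 counted 1820 genes, 9 with the Gapdh covariate, 1197 with the compared groups alone and 2871 with every probe set, and on day 4 it counted 655, against 20, 182, 377 under median scaling and 23 with the low-ratio array; on day 0 it counted 364, against 6 with the compared groups alone. Emerin KO minus lamin A/C KO counted 703 on day 0 (279 with the compared groups alone), 1111 on day 3 (30 with the covariate) and 1833 on day 4 (13 with the covariate, 42 with the low-ratio array, 3042 with every probe set). Lamin A/C KO against control counted 100 on day 0, against 50 under median scaling and 36 with the compared groups alone, 3 on day 3 (1 to 5) and 5 on day 4 (8 with every probe set). The day 4 minus day 3 counts of 131, 228 and 5 in emerin KO, lamin A/C KO and control ranged over 42 to 79, 53 to 380 and 1 to 14 where they moved by over 1.5 times, and the interaction counts of 295 and 64 in emerin KO fell to 16 and 2 at the lowest, and those of 19 and 23 in lamin A/C KO to 8 and 7. Signals under 100, which Arg1, Chil3 and Trem2 had on day 0, carry no order.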
